A study of Mus musculus with 43 samples.

Results

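The Fox and Sox families of transcription factors were described in lungs of mice after bleomycin, with and without nintedanib. Members were all genes of the count table whose mouse symbol was Fox with a letter and a number, or Sox with a number. That gave 63 genes of 21938, 44 Fox and 19 Sox. Of these, 40 had enough reads to be tested, 28 Fox and 12 Sox, and the other 23 are described at the end.

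Fox proteins bind DNA through a forkhead (winged-helix) domain and Sox proteins through an HMG box that bends the DNA. Many of them set or keep the identity of a lung cell type: FOXF1 and the SoxF proteins (SOX7, SOX17, SOX18) in vessels, FOXA1, FOXA2, FOXJ1 and SOX2 in epithelium, FOXP3 in regulatory T cells. Others act in many cells, such as FOXM1 in cell division and the FoxO proteins, which insulin and growth factor signalling through AKT keeps out of the nucleus.

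RNA was sequenced from 1 lung lobe per library in 3 groups. Mice made fibrotic with bleomycin, a DNA-breaking drug, received nintedanib (n = 17) or the vehicle of nintedanib (n = 16), and control mice received a vehicle (n = 10). Nintedanib blocks receptor tyrosine kinases of PDGF, FGF and VEGF and is given to people with pulmonary fibrosis. The labels give no strain, age, sex, dose, route or day, nor do they name the vehicle of the control mice, so bleomycin and any difference in vehicle cannot be told apart. No label states separate animals beyond separate samples, and p-values rest on the spread between libraries only. Libraries held 13138281 to 19111457 counts. The fat hormone gene Adipoq reached 1 CPM (counts scaled to library size) in 5 of 17 nintedanib libraries, 0 of 16 vehicle libraries and 8 of 10 control libraries, and leaving those libraries out keeps only 2 control libraries. Library names fell in 3 number series of unstated meaning, and the largest, series A, held 33 libraries. The airway gene Scgb1a1 reached at least 4854 CPM in every library. Exons of Foxf1, Foxf2, Foxj2, Foxm1, Foxo1, Foxp1, Foxp3, Foxq1, Sox4, Sox5, Sox17 and Sox21 overlap those of other annotated genes, and without the strand setting of the counting their reads cannot be told apart.

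After bleomycin more of the tested members fell than rose. Against control mice, 29 of 40 members passed an adjusted p of 0.05 in bleomycin mice given vehicle, 8 higher and 21 lower, where 57.9% of all 14836 tested genes passed, 29.5% higher and 28.3% lower. The median log2 fold change was -0.22 over the members and -0.01 over all tested genes. Under nintedanib 6 of 40 members differed from bleomycin vehicle, 4 higher and 2 lower, beside 7.31% of all genes, 3.21% higher and 4.1% lower. Nintedanib mice differed from control mice in 23 members, 7 higher and 16 lower, beside 53.2% of all genes, 28.1% higher and 25.1% lower. Both comparisons with control mice use the same 10 control libraries, and both comparisons with bleomycin vehicle in them use the same 16 vehicle libraries. In bulk tissue fewer cells of a type and less RNA per cell cannot be told apart.

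**Figure D1:**
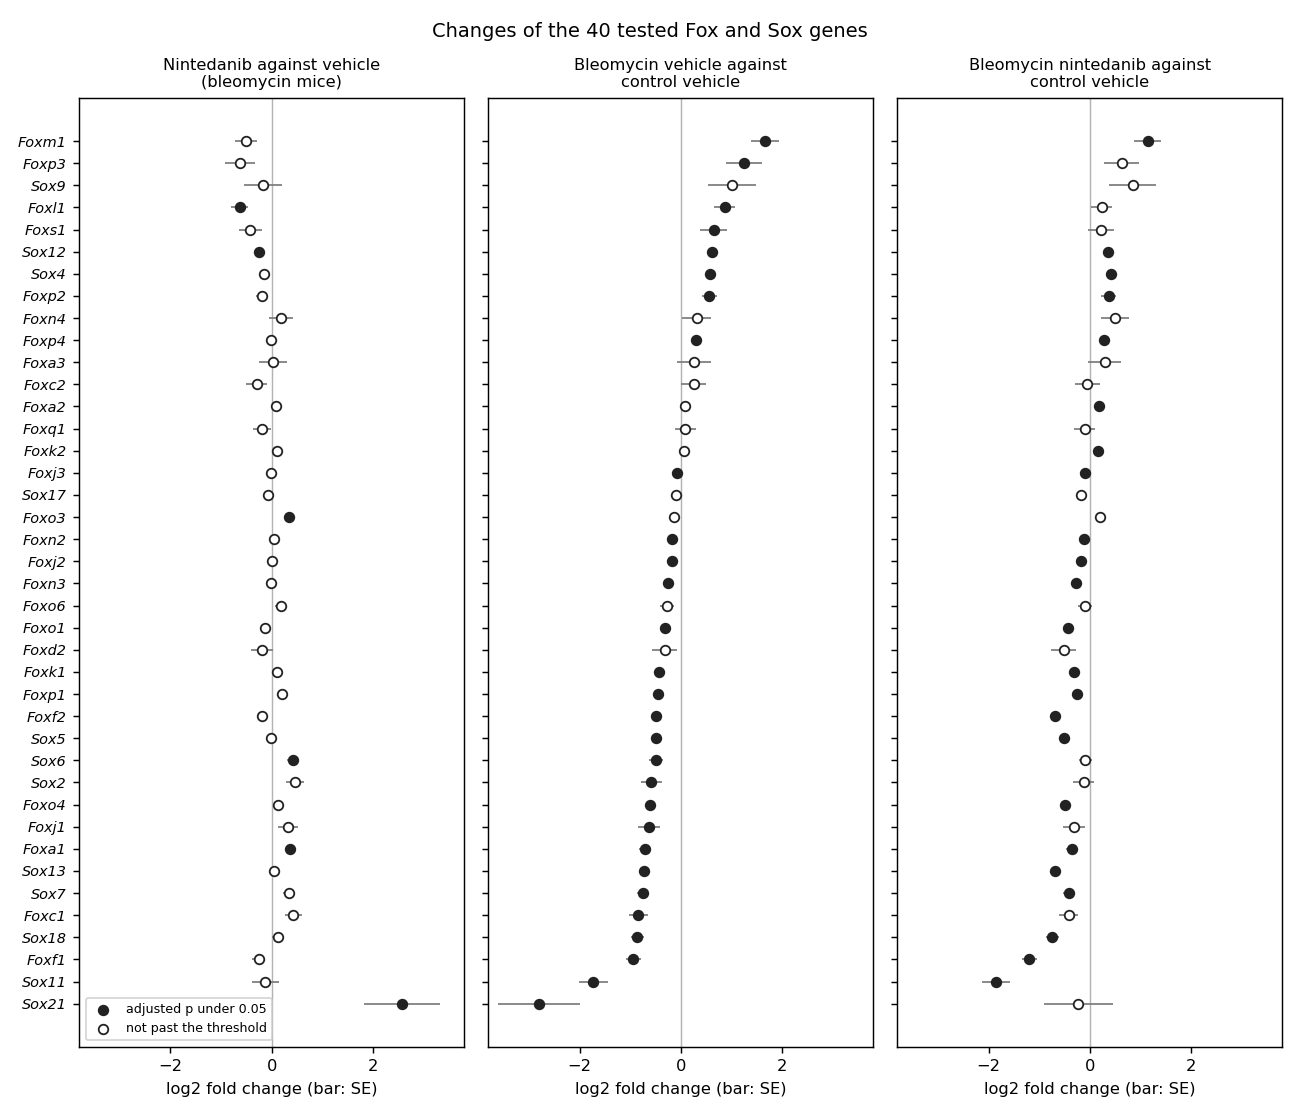
Log2 fold change of each of the 40 tested members in 3 comparisons, with its SE as a bar. Filled points passed an adjusted p of 0.05 (6, 29 and 23 members from left to right). Sox21 and Sox11 had the lowest values in bleomycin vehicle mice against control mice, and Foxm1 the highest.

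Levels per kilobase of exon (RPKM) spanned several orders of magnitude among the members. Sox18, Foxf1 and Foxj1 led, with medians over all libraries of 48.1, 46 and 35.6 RPKM. Foxa2, Foxp4 and Sox13 followed at 27.2, 24.1 and 21.2 RPKM. Sox7, at 18.1 RPKM, and Sox17, at 17 RPKM, came next. Sox11 at 1.15 RPKM, Foxm1 at 1.07 RPKM and Sox9 at 0.201 RPKM were lower. The group medians of Sox11 were 1.02 RPKM in nintedanib mice, 0.975 RPKM in bleomycin vehicle mice and 3.91 RPKM in control mice. Foxf1 and Sox18 exchanged first place between groups: the group medians were 39 RPKM for Foxf1 and 46.9 RPKM for Sox18 in nintedanib mice, 43.1 and 38.8 RPKM in bleomycin vehicle mice, and 90.1 and 82.4 RPKM in control mice.

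**Figure D2:**
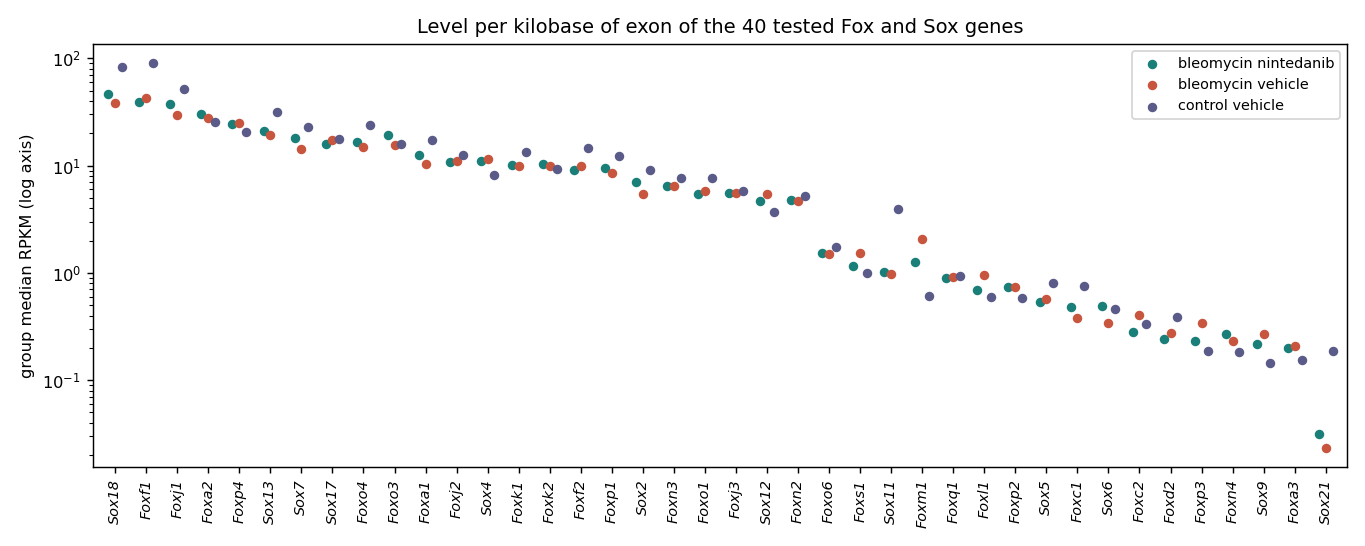
Median RPKM of each tested member in bleomycin mice given nintedanib, bleomycin mice given vehicle and control mice (log axis), ordered by the median over all libraries. Foxf1, Sox18 and Sox11 sit lower in both bleomycin groups, and Foxm1 sits higher.

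RefSeq promoter windows of the GRCm38.p6 build, from 250 bases before to 50 bases after a start site, were on hand for 41 of the 63 members. The 4 printed here belong to Sox11, which did not overlap between bleomycin and control mice, to Foxa1 and Sox12, which changed under nintedanib, and to Sox2, which keeps the airway epithelium. Sox11 lies on the minus strand at chr12:27342669-27342968, Foxa1 on the minus strand at chr12:57546062-57546361, Sox2 on the plus strand at chr3:34649745-34650044 and Sox12 on the minus strand at chr2:152397997-152398296. They are written 5′ to 3′ on the strand of the gene, and capitals mark matches on either strand to forkhead motifs (TGTTTAC or TGTTTGC), Sox motifs (ACAATGG or ACAAAGG) or the CCAAT box. None of these motifs contains another.
Sox11: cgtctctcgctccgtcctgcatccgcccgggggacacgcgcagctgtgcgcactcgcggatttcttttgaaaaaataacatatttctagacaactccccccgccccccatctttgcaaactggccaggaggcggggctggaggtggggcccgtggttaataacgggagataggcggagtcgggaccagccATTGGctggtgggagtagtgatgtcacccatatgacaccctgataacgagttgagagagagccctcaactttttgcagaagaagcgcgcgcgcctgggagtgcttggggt
Foxa1: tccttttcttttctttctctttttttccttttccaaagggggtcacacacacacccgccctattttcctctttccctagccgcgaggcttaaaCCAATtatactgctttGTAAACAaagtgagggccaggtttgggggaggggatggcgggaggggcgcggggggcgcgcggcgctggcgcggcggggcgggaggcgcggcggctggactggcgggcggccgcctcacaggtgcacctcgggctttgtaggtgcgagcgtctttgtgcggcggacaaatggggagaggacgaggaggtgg
Sox2: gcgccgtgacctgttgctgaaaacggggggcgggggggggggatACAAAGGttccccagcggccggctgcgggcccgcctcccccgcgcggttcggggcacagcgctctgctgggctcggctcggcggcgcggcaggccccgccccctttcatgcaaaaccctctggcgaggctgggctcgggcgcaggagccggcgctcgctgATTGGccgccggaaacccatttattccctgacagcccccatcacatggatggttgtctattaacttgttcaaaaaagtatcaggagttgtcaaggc
Sox12: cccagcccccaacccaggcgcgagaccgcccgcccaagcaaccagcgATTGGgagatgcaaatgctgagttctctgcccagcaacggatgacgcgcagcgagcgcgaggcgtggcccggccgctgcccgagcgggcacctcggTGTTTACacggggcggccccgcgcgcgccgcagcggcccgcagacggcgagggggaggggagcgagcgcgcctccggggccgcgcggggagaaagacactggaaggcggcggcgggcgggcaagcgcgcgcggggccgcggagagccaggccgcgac

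All 4 windows held a CCAAT box, read as ATTGG on the other strand in Sox11, Sox2 and Sox12. A forkhead motif stood in the windows of Foxa1 and Sox12, and a Sox motif in that of Sox2. Over all 32851 windows of the table, 8.48% held a forkhead motif, 9.28% a Sox motif and 37.4% a CCAAT box. Of the 51 windows of members, 5 held a forkhead motif, 9 a Sox motif and 25 a CCAAT box. Some of the 41 members had more than 1 window: these windows belonged to 5, 6 and 23 members. These are matches of letters and not binding sites.

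Of the vascular regulators Foxf1, Sox7 and Sox18 fell after bleomycin, and Sox17 did not pass the test. FOXF1 is needed to build the alveolar capillaries, and its loss in people causes alveolar capillary dysplasia. The lowest, median and highest Foxf1 levels were 61.4, 94.1 and 147 CPM in nintedanib mice, 45.5, 104 and 210.0 CPM in bleomycin vehicle mice and 185, 218 and 265 CPM in control mice. Every nintedanib library lay below the lowest control library, and 2 of 16 vehicle libraries reached the control range. The log2 fold change of Foxf1 was -0.94 (SE 0.15, adjusted p = 1e-06) for vehicle against control and -1.20 (SE 0.15, adjusted p = 6.5e-09) for nintedanib against control. Nintedanib against vehicle gave -0.26 (SE 0.13, adjusted p = 0.22), which did not pass.

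SOX7, SOX17 and SOX18 together guide the formation of arteries, veins and lymphatic vessels. Sox18 levels were 57.3, 75.9 and 105 CPM in nintedanib mice, 45.7, 62.8 and 121 CPM in bleomycin vehicle mice and 99.9, 133 and 172 CPM in control mice (lowest, median and highest). Sox7 levels were 43.2, 59.6 and 84 CPM in nintedanib mice, 27.3, 46.7 and 74.1 CPM in bleomycin vehicle mice and 62.6, 76.2 and 104 CPM in control mice. Both genes lay below the control median in all 16 vehicle libraries. In vehicle mice the log2 fold change against control was -0.86 (SE 0.13, adjusted p = 5.9e-07) for Sox18 and -0.75 (SE 0.13, adjusted p = 3e-06) for Sox7. In nintedanib mice it was -0.74 (SE 0.13, adjusted p = 7.1e-06) for Sox18 and -0.41 (SE 0.12, adjusted p = 0.0053) for Sox7. Nintedanib against vehicle gave 0.34 (SE 0.11, adjusted p = 0.053) for Sox7, just over the threshold, and 0.12 (SE 0.12, adjusted p = 0.56) for Sox18.

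Sox17, best known from arterial endothelium, did not pass the test in any comparison of all libraries. Its levels were 49.7, 75.6 and 123 CPM in nintedanib mice, 57.6, 82.8 and 103 CPM in bleomycin vehicle mice and 71.6, 84.8 and 104 CPM in control mice. The 3 ranges overlap over most of their width. It gave -0.09 (SE 0.11, adjusted p = 0.48) for vehicle against control, -0.08 (SE 0.09, adjusted p = 0.61) for nintedanib against vehicle and -0.17 (SE 0.11, adjusted p = 0.16) for nintedanib against control. The last of these passed when nintedanib replicate 8 was left out (adjusted p = 0.044).

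**Figure D3:**
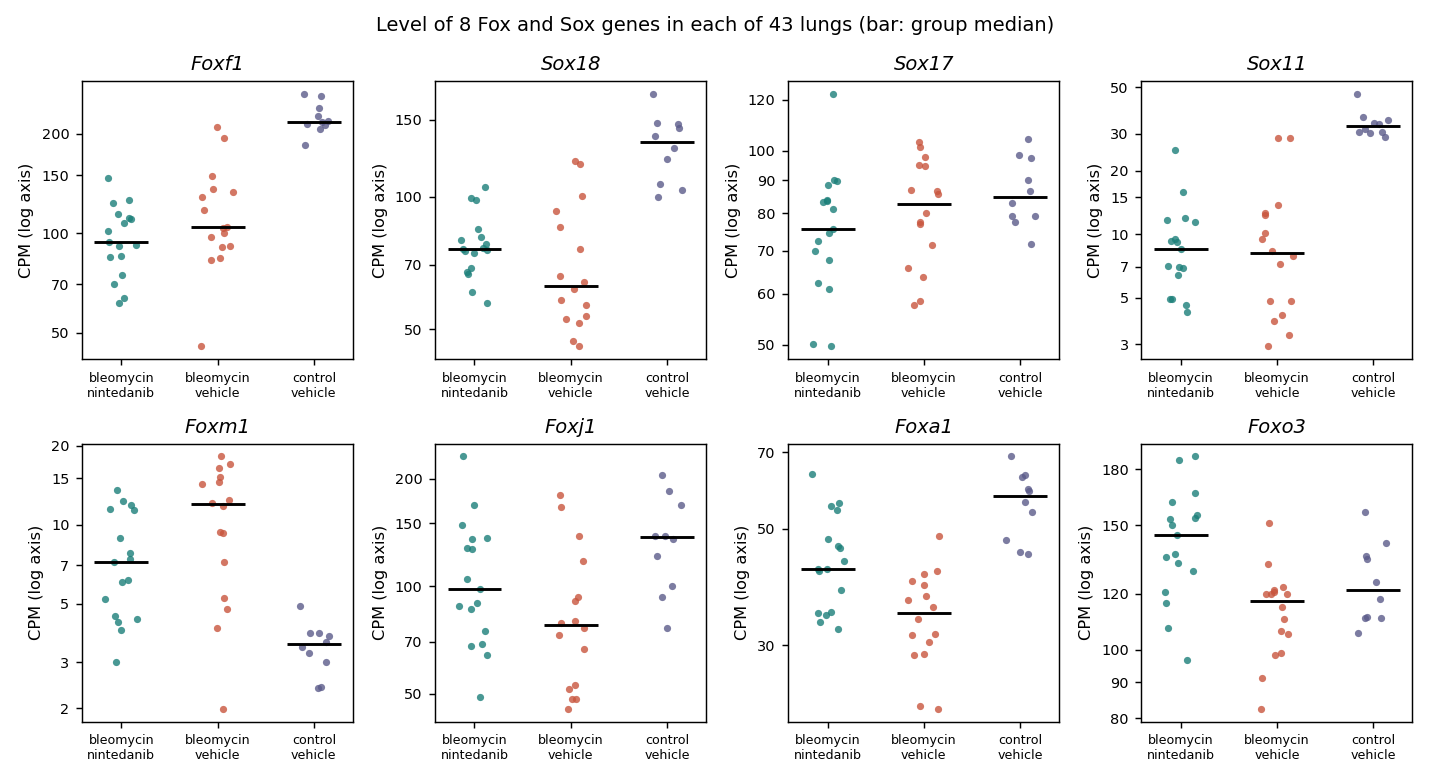
Level in CPM (log axis) of 8 members in each library, with the group median as a bar, for bleomycin mice given nintedanib, bleomycin mice given vehicle and control mice. Sox11 in both bleomycin groups, and Foxf1 in nintedanib mice, do not overlap with control mice, whereas the 3 groups overlap widely for Sox17.

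The endothelial genes around them fell as well. Of 15 genes shared by all endothelial cells, 13 fell and none rose in vehicle against control (median log2 fold change -0.68), among them Eng at -1.15, Ramp2 at -1.11 and Kdr at -1.05. All 15 fell in nintedanib against control, with a median of -0.77, and 2 fell in nintedanib against vehicle, Emcn by 0.31 and Ecscr by 0.25 on the log2 scale. All 7 genes of general capillaries fell in vehicle against control, led by Cd300lg at -1.65, Bmp6 at -1.55 and Clec1a at -1.01. Of 7 endothelial genes described as FOXF1 targets, 6 fell and 1 rose in that comparison, with Kdr, Tek and S1pr1 (at -0.79) lowest. Kdr and Tek also belong to the 15 genes above, so the lists overlap. Pecam1 itself had 559, 707 and 875 CPM in nintedanib mice, 429, 679 and 950 CPM in bleomycin vehicle mice and 904, 1012 and 1124 CPM in control mice (lowest, median and highest).

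Each vascular regulator was then set against the endothelial genes of its own library, as its log2 CPM minus the mean log2 CPM of the list, with a two-sided permutation test of 100000 resamples adjusted over 36 such tests of 12 member and list pairs. Of the 18 that passed, only Sox7 and Foxf1 in nintedanib against vehicle also passed without the Adipoq libraries. The comparisons with control then rest on 2 control libraries, where few distinct resamples exist and no very small p can arise. The smallest unadjusted p there, 0.0068 for Sox17 in vehicle against control, became 0.081 after adjustment. A missed threshold in those comparisons therefore decides nothing. Relative to the 15 endothelial genes, Sox17 was higher by 0.64 (adjusted p = 0.00024) in vehicle against control, in 16 of 16 libraries above the control median. It was higher by 0.59 (adjusted p = 0.00024) in nintedanib against control, in 17 of 17 libraries. Within series A the first of these was 0.73 (adjusted p = 0.00036), and with only the 2 control libraries that lacked Adipoq it was 0.87 (adjusted p = 0.081). Within groups Sox17 correlated with this list at only 0.37. Of 7 arterial genes 4 fell and 1 rose in vehicle against control (median -0.85). Their mean log2 CPM was 5.31 in nintedanib, 5.33 in vehicle and 5.59 in control mice. That of Sox17 was 6.23, 6.32 and 6.43. Sox17 relative to the arterial genes was not tested.

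Sox7 relative to the endothelial genes differed from control by -0.03 (adjusted p = 0.86) in vehicle mice, which did not pass. Under nintedanib it was higher relative to them: the difference was 0.39 (adjusted p = 0.00018) against vehicle, in 17 of 17 libraries above the vehicle median, and 0.36 (adjusted p = 0.0016) against control. The unadjusted p of Sox7 against vehicle, 1e-05, is the smallest that these resamples can give. Without the Adipoq libraries the difference from vehicle was 0.40 (adjusted p = 0.0011). Sox18 relative to the same list differed by 0.21 (adjusted p = 0.026) in nintedanib against vehicle and by -0.16 (adjusted p = 0.19) in vehicle against control. In series A the first of these was 0.14 (adjusted p = 0.24).

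Relative to the 7 general capillary genes, Foxf1 in vehicle mice differed from control by 0.02 (adjusted p = 0.86), which did not pass. Under nintedanib Foxf1 was lower relative to those genes, with a difference of -0.28 (adjusted p = 0.0044) from vehicle, in 14 of 17 libraries below the vehicle median. Against control the difference was -0.26 (adjusted p = 0.025). Within series A the difference from vehicle was -0.21 (adjusted p = 0.11). The 2 list genes that changed under nintedanib were Aplnr, the apelin receptor, at -0.84 and the guidance factor gene Sema3c at 0.39.

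**Figure D4:**
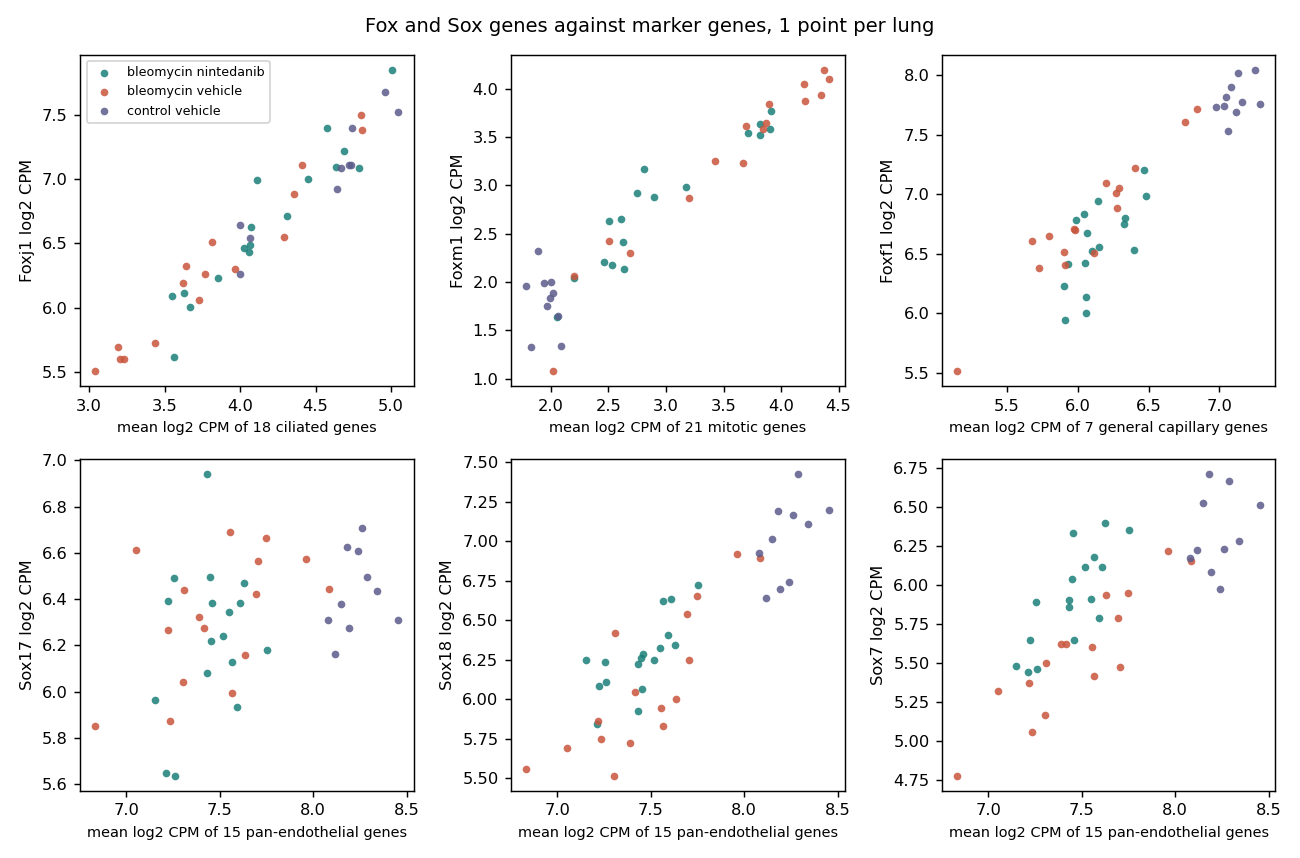
Log2 CPM of 6 members against the mean log2 CPM of a marker list in the same library, 1 point per library, by group. Foxj1 and Foxm1 run along their lists in all groups, Sox17 in the bleomycin groups stays at the level of control mice where the endothelial genes are lower, and Sox7 in nintedanib mice lies above vehicle mice at the same endothelial level.

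After subtraction of group means, the genes whose level followed Foxf1 most closely over 43 libraries were Sox13, Egfl7, Smad6, Arap3 and Efnb2, with Pearson correlations of 0.893 to 0.873 among 13756 genes. For Sox17 they were Plscr3, Timeless, Pdgfb, Gja4 and Mapk11, at 0.741 to 0.678. For Sox18, added to this description after its values were seen, they were Cldn5, Tbx3, Rtl8a, Itga1 and Impdh1, at 0.854 to 0.816. All genes of a library share its depth and cell mixture, so these values only describe likeness. Cldn5 and Egfl7 are endothelial genes, and Gja4 encodes a gap junction protein of arterial endothelium.

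Mesenchymal Fox genes went in both directions. Foxf2, a regulator in fibroblasts and pericytes, had 12, 21.7 and 25.7 CPM in nintedanib mice, 15.7, 23.4 and 34.3 CPM in bleomycin vehicle mice and 23.5, 34.4 and 39.3 CPM in control mice. All libraries of both bleomycin groups lay below the control median. Its log2 change was -0.49 (SE 0.10, adjusted p = 7.6e-05) for vehicle and -0.68 (SE 0.10, adjusted p = 3.8e-07) for nintedanib against control. Relative to 9 pericyte genes, of which 2 rose and 3 fell in vehicle against control, Foxf2 differed by -0.45 (adjusted p = 0.0012) in vehicle mice and by -0.49 (adjusted p = 0.00024) in nintedanib mice, both against control. Of 11 alveolar fibroblast genes, 9 fell and 0 rose in vehicle against control (median -0.73). In nintedanib against control 9 of them fell and 1 rose (median -0.60). Foxf2 relative to these fibroblast genes was not tested. Foxc1, which acts in developing vessels and mesenchyme, had 1.77, 2.79 and 6.22 CPM in nintedanib mice, 1.08, 2.20 and 3.69 CPM in bleomycin vehicle mice and 2.39, 4.42 and 5.70 CPM in control mice. Its log2 fold change in vehicle against control was -0.84 (SE 0.19, adjusted p = 0.00021). Median Foxc1 was higher in the libraries with Adipoq. It was 4.91 CPM with and 2.26 CPM without Adipoq in nintedanib mice, and 4.50 CPM with and 3.14 CPM without in control mice. No vehicle library reached 1 CPM of Adipoq, and how much of the Foxc1 difference goes with it was not tested.

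Foxl1 and Foxs1 rose in vehicle mice. FOXL1 marks signalling mesenchyme under the gut epithelium of mice, and Foxl1 lies close to Foxf1 on chromosome 8. Foxl1 levels were 1.02, 1.88 and 3.71 CPM in nintedanib mice, 1.84, 2.58 and 5.80 CPM in bleomycin vehicle mice and 1.11, 1.61 and 2.97 CPM in control mice. The log2 fold change came to 0.87 (SE 0.21, adjusted p = 0.00042) in vehicle against control, higher than the control median in 16 of 16 libraries. Nintedanib against vehicle gave -0.64 (SE 0.17, adjusted p = 0.02), lower than the vehicle median in 13 of 17 libraries, and nintedanib against control 0.23 (SE 0.20, adjusted p = 0.34). Without the Adipoq libraries the change of Foxl1 under nintedanib was -0.71 (adjusted p = 0.044).

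Foxs1, a pericyte gene in mouse embryos, had 0.603, 1.52 and 3.19 CPM in nintedanib mice, 0.685, 2.03 and 3.19 CPM in bleomycin vehicle mice and 0.442, 1.31 and 2.71 CPM in control mice. Its rise in vehicle mice, 0.65 (SE 0.26, adjusted p = 0.031), was lost when any of 8 libraries was left out in turn, vehicle replicates 4, 6 and 8 and control replicates 3, 6, 7, 9 and 10, with adjusted p of 0.055 to 0.088. Median Foxs1 was 1.03 CPM in the 8 control libraries with Adipoq and 2.09 CPM in the 2 without, the latter near the vehicle median. In nintedanib mice the medians were 1.72 CPM with and 1.5 CPM without Adipoq. Foxc2, Foxd2 and Foxq1 did not pass in any comparison, with adjusted p of 0.071 or more.

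The airway regulators Foxj1, Sox2, Sox21 and Foxa1 fell in vehicle mice over all libraries, and none of these calls was made without the Adipoq libraries. FOXJ1 switches on the genes of motile cilia. Foxj1 levels were 49, 98.5 and 231 CPM in nintedanib mice, 45.3, 77.6 and 181 CPM in bleomycin vehicle mice and 76.5, 137 and 205 CPM in control mice. The groups overlap, and 9 of 16 vehicle libraries lay within the control range. Fold changes of Foxj1 on the log2 scale were -0.63 (SE 0.22, adjusted p = 0.014) for vehicle against control, 0.32 (SE 0.20, adjusted p = 0.31) for nintedanib against vehicle and -0.31 (SE 0.22, adjusted p = 0.24) for nintedanib against control. Vehicle against control gave -0.55 (adjusted p = 0.070) in series A and 0.01 (adjusted p = 0.99) without the Adipoq libraries.

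Cilia genes fell as well. Of 18 ciliated cell genes 13 fell and none rose in vehicle against control, with a median of -0.74, led by Dnah5 at -1.03, Hydin at -0.98 and Ccdc153 at -0.94, all parts or builders of the cilium. Under nintedanib 1 rose against vehicle, Rfx2 at 0.24, and 5 fell against control. Foxj1 relative to these 18 genes differed by 0.02 (adjusted p = 0.86) in vehicle against control and by 0.00 (adjusted p = 1.0) in nintedanib against vehicle. The genes most like Foxj1 were Traf3ip1, Tekt1, Drc3, Syt5 and Wdr66, with correlations of 0.963 to 0.955 over the 43 libraries.

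SOX2 keeps the airway epithelium, and SOX21 acts beside it in airway progenitors of mice. Sox2 levels were 7.43, 14.6 and 29.8 CPM in nintedanib mice, 5.65, 11.3 and 21.5 CPM in bleomycin vehicle mice and 9.47, 18.5 and 27 CPM in control mice, with a log2 fold change of -0.58 (SE 0.21, adjusted p = 0.016) for vehicle against control and 0.46 (SE 0.18, adjusted p = 0.11) for nintedanib against vehicle. In vehicle against control Sox2 gave -0.50 (adjusted p = 0.076) in series A and turned to 0.26 (adjusted p = 0.62) without the Adipoq libraries. Sox21 levels were 0, 0.120 and 6.89 CPM in nintedanib mice, 0, 0.0894 and 0.424 CPM in bleomycin vehicle mice and 0, 0.710 and 3.35 CPM in control mice. The log2 fold change came to -2.80 (SE 0.81, adjusted p = 0.003) for vehicle against control and 2.57 (SE 0.74, adjusted p = 0.028) for nintedanib against vehicle. The nintedanib call was lost with limma-voom (0.85, adjusted p = 0.54) and with 2 surrogate variables (1.82, adjusted p = 0.066). Sox21 had too few reads to be tested once the Adipoq libraries were left out. Most Sox21 levels are close to 0 in both bleomycin groups. In control mice they are higher but still sparse, with a median of 0.710 CPM, and the group ranges overlap.

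Foxa1, which opens chromatin for epithelial genes, had 32.2, 41.9 and 63.7 CPM in nintedanib mice, 22.6, 34.5 and 48.4 CPM in bleomycin vehicle mice and 44.8, 57.7 and 68.7 CPM in control mice. For Foxa1 the log2 fold change was -0.71 (SE 0.11, adjusted p = 4.7e-07) for vehicle against control, 0.35 (SE 0.10, adjusted p = 0.019) for nintedanib against vehicle and -0.36 (SE 0.11, adjusted p = 0.0048) for nintedanib against control. Without the Adipoq libraries it was -0.43 (adjusted p = 0.097) for vehicle against control and 0.27 (adjusted p = 0.11) for nintedanib against vehicle. In 14 of 17 nintedanib libraries Foxa1 was above the vehicle median, and in 16 of 17 it was below the control median.

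Within nintedanib mice and within control mice these airway genes had higher medians in the libraries with Adipoq. In the 5 nintedanib libraries with Adipoq Sox21 had 0.0630, 2.47 and 6.89 CPM, against 0, 0.118 and 0.227 CPM in the 12 without (lowest, median and highest). Median Sox2 was 26.8 CPM with and 12.7 CPM without Adipoq in nintedanib mice, and 19.99 CPM with and 10.2 CPM without in control mice. Median Foxj1 was 149 CPM with and 88.9 CPM without Adipoq in nintedanib mice, and 138 CPM with and 88.2 CPM without in control mice.

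Over all libraries the club cell list fell further than Sox2 and Foxa1. All 10 club cell genes fell in vehicle against control, with a median of -2.28, and 6 rose in nintedanib against vehicle, among them Reg3g at 6.58, Bpifa1 at 6.09 and Bpifb1 at 5.38. Scgb1a1, the main club cell secretory gene, had 8193, 12548 and 19885 CPM in nintedanib mice, 4854, 8632 and 17748 CPM in bleomycin vehicle mice and 15598, 20524 and 28181 CPM in control mice. Relative to the 10 genes, Sox2 was higher by 1.90 (adjusted p = 0.00024) and Foxa1 by 1.77 (adjusted p = 0.0012) in vehicle against control, each above the control median in 16 of 16 libraries. With those that held Adipoq left out, the differences were 0.56 (adjusted p = 0.17) for Sox2 and -0.070 (adjusted p = 0.93) for Foxa1. In nintedanib against control Sox2 was higher relative to the list by 1.5 (adjusted p = 0.022), which did not pass in series A (1.38, adjusted p = 0.063) or with the median of the list (1.36, adjusted p = 0.11), and Foxa1 gave 1.29 (adjusted p = 0.087).

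Foxa2 did not change in vehicle mice beyond the threshold. FOXA2 drives surfactant and other alveolar type 2 genes. Foxa2 levels were 55.1, 71.6 and 78.2 CPM in nintedanib mice, 46.2, 65.6 and 76.7 CPM in bleomycin vehicle mice and 53.3, 61.1 and 69.3 CPM in control mice. It rose in nintedanib against control by 0.17 (SE 0.06, adjusted p = 0.019), a call lost when any of 13 libraries was left out in turn (adjusted p up to 0.11), and differed by 0.09 (SE 0.06, adjusted p = 0.22) in vehicle against control. Of 11 alveolar type 2 genes 6 rose in vehicle mice, with Sftpd at 1.03, Napsa at 0.65 and Lpcat1 at 0.50, and 10 rose in nintedanib mice against control. Relative to those genes Foxa2 differed by -0.26 (adjusted p = 0.021) in vehicle mice and by -0.29 (adjusted p = 0.0018) in nintedanib mice, both against control. The first of these was -0.20 (adjusted p = 0.11) in series A, and without the Adipoq libraries they were -0.14 (adjusted p = 0.76) and -0.19 (adjusted p = 0.37).

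FOXP1, FOXP2 and FOXP4 are repressors of the developing lung epithelium, and here they differed in direction. Foxp4 had 103, 121 and 139 CPM in nintedanib mice, 104, 124 and 149 CPM in bleomycin vehicle mice and 91.5, 101 and 112 CPM in control mice, above the control median in all bleomycin libraries. Foxp2 had 7.27, 12.1 and 19 CPM in nintedanib mice, 6.95, 12 and 23 CPM in bleomycin vehicle mice and 7.57, 9.44 and 10.4 CPM in control mice. In vehicle against control Foxp4 rose by 0.30 (SE 0.05, adjusted p = 2.1e-06), Foxp2 rose by 0.56 (SE 0.15, adjusted p = 0.0012) and Foxp1 changed by -0.44 (SE 0.10, adjusted p = 0.00039). In nintedanib against control the values were 0.28 (SE 0.05, adjusted p = 3.8e-06) for Foxp4, 0.37 (SE 0.15, adjusted p = 0.029) for Foxp2 and -0.25 (SE 0.10, adjusted p = 0.039) for Foxp1. Against control under nintedanib the call of Foxp2 was lost without any of 10 libraries (nintedanib replicates 12 and 14 and control replicates 2, 3, 4, 5, 7, 8, 9 and 10, adjusted p of 0.050 to 0.087), and that of Foxp1 without any of 8 (nintedanib replicates 1, 2, 3, 5, 7, 11, 15 and 17, adjusted p of 0.050 to 0.056). None of the 3 passed in nintedanib against vehicle, and Foxp1 there lay above the vehicle median in 17 of 17 libraries (0.19 (SE 0.09, adjusted p = 0.19)).

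SOX9 marks the growing tips of the embryonic lung and cartilage. Sox9 was sparse, with 0.120, 0.906 and 3.15 CPM in nintedanib mice, 0, 1.12 and 2.81 CPM in bleomycin vehicle mice and 0.0588, 0.598 and 1.08 CPM in control mice. Only 7 of 16 vehicle libraries lay within the control range, and the log2 fold change of 1.01 (SE 0.47, adjusted p = 0.061) missed the threshold. It passed without vehicle replicate 5, 12 or 13 or control replicate 7 (adjusted p of 0.029 to 0.044). Of 12 cartilage and SOX9 target genes 4 had enough reads, and 3 of them rose in vehicle against control, Hapln1 at 1.66, Comp at 1.23 and Col11a2 at 0.32, where the first fell under nintedanib by 0.88. All 8 genes of the transitional epithelium that forms between alveolar cell types after injury rose in vehicle mice, led by Sprr1a at 4.62, Lcn2 at 2.99 and Cldn4 at 2.54. Sox9 relative to them differed by -1.07 (adjusted p = 0.026) in vehicle against control. Series A alone did not give that call (-0.70, adjusted p = 0.18), nor did the median of the list in place of its mean (-0.88, adjusted p = 0.097), and the difference turned to 0.26 (adjusted p = 0.83) without the Adipoq libraries. The genes most like Sox9 were Rhbdl2, Inava, Pcdh7, Penk and Megf11, at 0.757 to 0.720. Foxa3 and Foxn4, both below a median of 1 CPM in every group, did not pass in any comparison, with adjusted p of 0.14 or more.

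Foxm1 had the largest rise among the members in vehicle against control. FOXM1 activates the genes of mitosis. Its levels were 2.99, 7.23 and 13.5 CPM in nintedanib mice, 1.99, 12 and 18.2 CPM in bleomycin vehicle mice and 2.39, 3.50 and 4.89 CPM in control mice. In vehicle mice 15 of 16 libraries were above the control median, and the lowest vehicle library lay below the lowest control library. The log2 fold change was 1.66 (SE 0.28, adjusted p = 2.4e-06) for vehicle and 1.14 (SE 0.27, adjusted p = 0.00045) for nintedanib against control. Nintedanib against vehicle gave -0.51 (SE 0.22, adjusted p = 0.14), with 15 of 17 libraries below the vehicle median, and passed only when vehicle replicate 10 was left out (adjusted p = 0.049).

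Mitotic genes moved with Foxm1. Of 21 mitotic FOXM1 targets 20 rose in vehicle against control, with a median of 2.02, led by Ccnb1 at 2.85, Cenpf at 2.55 and Cdc25c at 2.54. In nintedanib against control 17 rose, and in nintedanib against vehicle 5 fell, led by Ccnb2 at -0.75, Bub1b at -0.66 and Aurka at -0.62, with a median of -0.65 over the 21. Relative to them Foxm1 differed by -0.13 (adjusted p = 0.39) in vehicle against control and by 0.13 (adjusted p = 0.16) in nintedanib against vehicle. With the median of the list in place of its mean, the first of these passed, at -0.33 (adjusted p = 0.018). In that setting 16 of 16 vehicle libraries lay below the control median. The genes most like Foxm1 were Top2a, Racgap1, Ube2c, Mki67 and Cdca3, at 0.936 to 0.924. Mki67 had 15.6, 29.8 and 64.2 CPM in nintedanib mice, 13.1, 61.3 and 99.5 CPM in bleomycin vehicle mice and 9.61, 13.9 and 18.1 CPM in control mice.

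FOXP3 defines regulatory T cells, which restrain immune responses. Foxp3 levels were 0.323, 1.05 and 3.05 CPM in nintedanib mice, 0.628, 1.58 and 7.02 CPM in bleomycin vehicle mice and 0.291, 0.851 and 1.52 CPM in control mice. Vehicle mice had a log2 fold change of 1.25 (SE 0.35, adjusted p = 0.0026) against control, above the control median in 14 of 16 libraries, and nintedanib mice 0.63 (SE 0.35, adjusted p = 0.13). Nintedanib against vehicle gave -0.63 (SE 0.29, adjusted p = 0.17). None of 10 general T cell genes rose in vehicle mice and 1 fell, with a median of -0.07, and Foxp3 relative to them was higher by 1.25 (adjusted p = 0.00018) in vehicle mice and by 0.96 (adjusted p = 0.0012) in nintedanib mice, both against control. Of 7 other regulatory T cell genes 3 rose in vehicle mice, Tigit at 1.21, Tnfrsf4 at 0.95 and Il2ra at 0.80.

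The SoxC genes Sox4, Sox11 and Sox12 encode near relatives that act in progenitor cells, and they went in opposite directions. Sox11 levels were 4.26, 8.52 and 25.1 CPM in nintedanib mice, 2.93, 8.11 and 28.6 CPM in bleomycin vehicle mice and 29.1, 32.5 and 46.5 CPM in control mice. No library of either bleomycin group reached the lowest control library. Sox11 had a log2 fold change of -1.73 (SE 0.29, adjusted p = 2.3e-06) for vehicle and -1.85 (SE 0.28, adjusted p = 6e-07) for nintedanib against control, while nintedanib against vehicle gave -0.13 (SE 0.26, adjusted p = 0.81). Its nearest genes by level, looked up after its values were seen, were Tspan13, Kitl, Fmo1, St3gal6 and Mapt, at 0.934 to 0.863. Kitl encodes the ligand of the Kit receptor. All 6 genes of aerocytes, the large capillary cells of gas exchange, fell as well, with a median of -0.80 in vehicle against control.

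Sox4 and Sox12 rose. Sox4 had 34.8, 52.7 and 76 CPM in nintedanib mice, 38.9, 54.8 and 80.2 CPM in bleomycin vehicle mice and 30.7, 39.6 and 48.7 CPM in control mice. Sox12 had 15.1, 20.9 and 26.2 CPM in nintedanib mice, 18.2, 24.4 and 34.2 CPM in bleomycin vehicle mice and 13.2, 16.6 and 21.8 CPM in control mice. In vehicle against control Sox4 changed by 0.58 (SE 0.11, adjusted p = 1.5e-05) and Sox12 by 0.61 (SE 0.09, adjusted p = 3.1e-07), and Sox12 was above the control median in 16 of 16 libraries. In nintedanib against control the values were 0.42 (SE 0.11, adjusted p = 0.00098) for Sox4 and 0.35 (SE 0.09, adjusted p = 0.00089) for Sox12. Sox12 also differed from vehicle under nintedanib, by -0.25 (SE 0.08, adjusted p = 0.034), and this was lost without any of 7 libraries (nintedanib replicates 1, 7, 9 and 16 and vehicle replicates 7, 8 and 9, adjusted p of 0.050 to 0.069) and without the Adipoq libraries (adjusted p = 0.12).

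The SoxD proteins SOX5, SOX6 and SOX13 have no known activation domain and modify the work of other Sox proteins. Sox13 had 64.4, 91 and 99.7 CPM in nintedanib mice, 48.4, 82.4 and 136 CPM in bleomycin vehicle mice and 123, 136 and 165 CPM in control mice, and no nintedanib library reached the control range. Sox5 had 6.63, 7.75 and 11.6 CPM in nintedanib mice, 5.12, 8.26 and 10.2 CPM in bleomycin vehicle mice and 8.99, 11.6 and 14.7 CPM in control mice. Sox6 had 3.51, 7.27 and 9.87 CPM in nintedanib mice, 3.77, 5.04 and 7.75 CPM in bleomycin vehicle mice and 5.59, 6.85 and 12.8 CPM in control mice. All 3 fell in vehicle against control, with log2 fold changes of -0.72 (SE 0.10, adjusted p = 4.1e-08) for Sox13, -0.49 (SE 0.09, adjusted p = 9.2e-06) for Sox5 and -0.50 (SE 0.14, adjusted p = 0.002) for Sox6. Sox13 (-0.69 (SE 0.10, adjusted p = 1.1e-07)) and Sox5 (-0.51 (SE 0.09, adjusted p = 4.9e-06)) were also lower in nintedanib mice than in control mice, and Sox6 gave -0.09 (SE 0.14, adjusted p = 0.61). Sox6 rose under nintedanib against vehicle by 0.41 (SE 0.12, adjusted p = 0.03), in 15 of 17 libraries above the vehicle median. That call was lost without nintedanib replicate 1, 2 or 7 or vehicle replicate 8 (adjusted p of 0.051 to 0.055) and without the Adipoq libraries (adjusted p = 0.15).

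FoxO proteins switch on genes of stress resistance and cell cycle arrest. Foxo3 had 96.8, 145 and 188 CPM in nintedanib mice, 82.5, 117 and 151 CPM in bleomycin vehicle mice and 106, 121 and 157 CPM in control mice. It rose under nintedanib against vehicle by 0.33 (SE 0.08, adjusted p = 0.0065), in 14 of 17 libraries above the vehicle median, while vehicle against control gave -0.14 (SE 0.09, adjusted p = 0.18). In series A the rise was 0.39 (adjusted p = 0.0062), and without the Adipoq libraries it was 0.41 (adjusted p = 0.0048). Among the 6 members that changed under nintedanib, Foxo3 and Foxl1 were the ones that passed in both of these fits.

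Foxo4 and Foxo1 fell after bleomycin. Foxo4 had 44, 58.3 and 78.4 CPM in nintedanib mice, 44.8, 52.2 and 69.6 CPM in bleomycin vehicle mice and 77.7, 83 and 88.9 CPM in control mice, with no overlap between vehicle and control. Foxo1 had 42.2, 47.3 and 73.2 CPM in nintedanib mice, 42.4, 50.7 and 76.8 CPM in bleomycin vehicle mice and 58.4, 66.9 and 76.1 CPM in control mice. Against control Foxo4 changed by -0.61 (SE 0.07, adjusted p = 2.4e-09) in vehicle mice and -0.49 (SE 0.07, adjusted p = 2.2e-07) in nintedanib mice, and Foxo1 by -0.31 (SE 0.08, adjusted p = 0.00097) and -0.43 (SE 0.08, adjusted p = 9.5e-06). Foxo6 did not pass in any comparison. Of 20 genes described as FoxO targets 12 fell and 2 rose in vehicle against control, with a median of -0.20. Trim63, a muscle ubiquitin ligase gene, changed by -2.90, the cell cycle inhibitor gene Cdkn1a by 2.19 and the fuel switch gene Pdk4 by -1.82. In nintedanib against vehicle 1 target rose, Bcl6 at 0.20. Heart muscle genes, from the muscle sleeves of the lung veins, also differed between the groups: all 6 fell in vehicle against control, with summed levels of 28.4 to 1920.1 CPM in nintedanib mice, 19.98 to 563 CPM in bleomycin vehicle mice and 305 to 1636 CPM in control mice, and their part in the Trim63 value was not tested.

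The widely expressed FoxJ, FoxK and FoxN genes changed by small amounts. Foxk1, a regulator of glucose use, had 73.6, 77.5 and 94.1 CPM in nintedanib mice, 59.6, 74.8 and 88.5 CPM in bleomycin vehicle mice and 90.8, 101 and 113 CPM in control mice, without overlap between vehicle and control. Its log2 fold change against control was -0.43 (SE 0.05, adjusted p = 8e-10) in vehicle mice and -0.31 (SE 0.05, adjusted p = 4.4e-07) in nintedanib mice. Its paralog Foxk2, at 49, 54.6 and 65.6 CPM in nintedanib mice, 40.2, 52 and 62.6 CPM in bleomycin vehicle mice and 45.9, 49.1 and 54.2 CPM in control mice, rose in nintedanib against control by 0.16 (SE 0.05, adjusted p = 0.0062), a call lost without control replicate 3 (adjusted p = 0.054). Foxn3, Foxj2, Foxn2 and Foxj3 fell in both comparisons with control, by 0.08 to 0.27 on the log2 scale, and did not pass in nintedanib against vehicle. The call of Foxj3 was lost without any of 17 libraries in vehicle against control (adjusted p of 0.050 to 0.071) and without nintedanib replicate 8 or 13 in nintedanib against control (adjusted p of 0.050 to 0.052). That of Foxn2 in nintedanib against control was lost without any of 6 libraries (nintedanib replicates 4, 7, 8, 10 and 13 and control replicate 1, adjusted p of 0.051 to 0.11).

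Over all members, the libraries of the 2 groups did not overlap for 3 genes in vehicle against control (Foxk1, Foxo4, Sox11) and for 3 in nintedanib against control (Foxf1, Sox11, Sox13). Over all tested genes the shares were 5.54% and 7.37%. No member and no tested gene separated the nintedanib libraries from the vehicle libraries.

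The 23 members that were not tested had few reads. Foxi3 and Sox14 had no count in any library, and a count of 0 in a single library still allows an expected count of up to about 3 there. The other 21 had at most 37 counts in a library, in Foxd4, and Foxd4 had the highest total over all 43 libraries, 251 counts. Sox8 had 214, Sox15 134, Sox10 122 and Sox30 122 counts in all. Sox10, a gene of nerve sheath cells, was at 0 in 1 nintedanib, 2 vehicle and 3 control libraries. Foxr1, Foxn1, Foxd1, Foxr2, Foxd3, Foxh1 and Foxl2 had 62 to 17 counts in all. Foxi1, Foxe1, Sox3, Sox1, Foxb1, Foxe3, Foxb2 and Foxi2 had 8 or fewer. Foxi1 marks ionocytes, a rare airway cell, and Foxl2 is a gene of the ovary.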

How the data were processed

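RNA of the inferior lung lobe, polyA RNA per the labels, was made into directional libraries and read single-end, per the labels' protocols. The authors deposited whole-number counts per gene with a column for each library. The submitters' processing notes name the GRCm38 build, R 3.6.0 and STAR 2.7.0f. How reads were counted, on which strand and with which annotation was not given in the sources used here. Symbols and coordinates came from GENCODE M21 and promoters from RefSeq (GRCm38.p6).

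A filter on low counts (filterByExpr, count 10, total 15) kept 14836 genes holding 99.96% of counts. Groups were compared with the two-sided quasi-likelihood test of edgeR, using TMM factors and all 43 libraries (40 residual degrees of freedom), and p-values were adjusted over every tested gene (Benjamini-Hochberg). CPM and RPKM use TMM-scaled library sizes, and log2 CPM a prior count of 2. The fit was checked on simulated data. Alternatives used DESeq2 1.42.0, limma-voom (limma 3.58.1), sva 3.50.0, other scalings and filters, subsets of libraries and each library left out in turn. R 4.3.3, edgeR 4.0.16 and Python 3.11.15 were used.

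The members, gene lists and tests were chosen with earlier results of these data known. Lists have no test of their own. Values by group are given for Foxf1, Foxj1, Foxm1, Sox9, Sox17 and, per comparison, up to 8 called members with the largest rise and 8 with the largest fall, and of each list the 3 called genes with the largest change. Others, such as Foxk1 and Sox2, and the looked-up neighbours of Sox11 and Sox18 were named after their values were seen. Values of 1 untested member are not reported here.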

Additional observations from a re-analysis of the deposited data

Results flagged for a closer look

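In control mice, 3 of 40 members examined had 1 library far from the other 9 by Dixon's gap criterion, and chance alone gives about 1 in 20 such groups. Foxn4 had 0.0616 CPM in control replicate 2, below the 0.346 to 1.01 CPM of the others. Sox11 had 46.5 CPM in control replicate 5, above the 29.1 to 36.2 CPM of the others. Sox6 had 12.8 CPM in control replicate 1, above the 5.59 to 8.68 CPM of the others. Control replicates 2 and 5 were the 2 control libraries without Adipoq, on which the fits without the Adipoq libraries rest. Control replicate 1 held Adipoq. Whether Adipoq bears on these values was not tested.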

How the results depend on the processing

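No paired analysis was possible because the labels give no pairing of libraries. The labels also give no replicate numbers, and those used here follow the order of the samples within each group. Other scaling factors (RLE), DESeq2 and the series as a term gave member counts within 1.5 times those of the edgeR fit. Without the Adipoq libraries, which leaves 2 control libraries, vehicle against control called 15 members (4 higher, 11 lower) and 3654 genes, nintedanib against vehicle 2 members (1 higher, 1 lower) and 525 genes, and nintedanib against control 12 members (1 higher) and 3297 genes. In nintedanib against vehicle, 2 surrogate variables gave 7 higher members and 1694 genes, series A alone 1 lower member, and a fit of only the 2 groups 640 genes. Scaling by library totals left 4 higher members in nintedanib against control. With each library left out in turn, nintedanib against vehicle called 3 to 9 members (2 to 6 higher, 1 to 3 lower) and 696 to 1559 genes, the lowest without nintedanib replicate 1, and nintedanib against control called 4 to 8 higher members, the lowest without control replicate 3. The causes were not tested.

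Without the Adipoq libraries Foxj1 reversed to 0.0055 in vehicle against control and 0.088 in nintedanib against control, and Sox2 to 0.26 in vehicle against control. Relative to the marker lists, 18 of 36 differences passed, and 2 without the Adipoq libraries. There the comparisons with control rest on 2 control libraries and could hardly pass. With the median of the list in place of its mean, Foxm1 in vehicle against control newly passed (-0.33, adjusted p = 0.018). In the same setting, uncalled differences turned sign for Foxj1 (-0.041 in nintedanib against vehicle, -0.027 and -0.068 in vehicle and nintedanib against control), Foxa2 (0.042 in nintedanib against vehicle), Foxm1 (-0.15) and Sox18 (-0.018) in nintedanib against control, and Foxf1 (-0.087) in vehicle against control. Without the Adipoq libraries the sign turned in vehicle against control for the called differences of Foxa1 (-0.070, against 1.77 over all libraries) and Sox9 (0.26, against -1.07) and for the uncalled ones of Foxm1 (0.091) and Sox7 (0.080), in nintedanib against vehicle for Foxj1 (-0.047), Sox2 (0.23) and Foxa1 (0.31), and in nintedanib against control for Foxj1 (-0.0077). In series A it turned in vehicle against control for Sox7 (0.035) and Foxf1 (-0.018).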
